A study of Mus musculus with 8 samples.

Results

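The melanocyte genes are Dct, Tyr, Tyrp1, Pmel, Mlana, Mitf, Sox10, Slc45a2 and Ednrb, a set of 9 genes that mark pigment cells. Every probe set of the deposited table with a single gene symbol that is one of these names was taken, which gave 17 probe sets of 8 genes, of 20393 probe sets and 12394 genes with a single symbol in all. Mlana had no such probe set and was not analysed here. The samples were 8 arrays of whole skin RNA from newborn mice of the FVB strain, each from a pool of 3 animals, in 4 genotypes of 2 arrays: pRb-/-;p53-/- (double-null), pRb-/-;p53+/+ (pRb-null), pRb+/+;p53-/- (p53-null) and Control. pRb and p53 are tumour suppressors. Per the series title the inactivation was somatic and in stratified epithelia, and the sources used here do not name the promoter that drove it. They are also silent on whether both arrays of a genotype came from different pools, so each p-value reflects array-to-array spread that could be technical.

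Melanocytes arise from the neural crest, not from the epithelium, and in newborn mouse skin they settle in the growing hair follicles, where they pass melanosomes to the hair shaft. Mitf is the transcription factor that switches on the pigment genes, and Sox10 acts above it. Tyr, Tyrp1 and Dct encode the related enzymes of melanin synthesis, Pmel forms the fibrils on which melanin is laid down, and Slc45a2 is a melanosome transporter. Mice of the FVB strain are albino through a mutation in Tyr, so their melanocytes carry the transcripts of this machinery without making pigment. In whole tissue, fewer cells of a type and less RNA per cell cannot be told apart.

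The promoters of the 3 enzyme genes are shown because the enzymes scored low together in 1 genotype. Of the 8 genes, 5 were in the RefSeq promoter table of build GRCm38.p6, which is of another strain, in 7 windows that run from 250 bases before a start site to 50 after it. Capitals mark the longest run around CATGTG, the core of the M-box that Mitf binds in pigment genes, that the enzyme windows had in common, found after the sequences had been seen. The Tyr window is chr7:87493463-87493762 on the minus strand, the Tyrp1 window chr4:80833963-80834262 on the plus strand, and the Dct window chr14:118052197-118052496 on the minus strand.
Tyr: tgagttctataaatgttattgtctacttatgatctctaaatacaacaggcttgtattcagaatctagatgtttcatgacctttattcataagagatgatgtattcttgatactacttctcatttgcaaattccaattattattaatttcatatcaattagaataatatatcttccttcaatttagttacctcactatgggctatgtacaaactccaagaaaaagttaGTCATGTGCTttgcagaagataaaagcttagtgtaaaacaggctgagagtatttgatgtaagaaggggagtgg
Tyrp1: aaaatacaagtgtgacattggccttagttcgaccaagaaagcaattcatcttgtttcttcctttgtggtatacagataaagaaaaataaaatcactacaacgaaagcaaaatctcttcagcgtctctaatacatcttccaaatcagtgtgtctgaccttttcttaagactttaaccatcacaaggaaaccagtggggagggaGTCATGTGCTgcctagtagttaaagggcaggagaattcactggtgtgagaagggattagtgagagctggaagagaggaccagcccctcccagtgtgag
Dct: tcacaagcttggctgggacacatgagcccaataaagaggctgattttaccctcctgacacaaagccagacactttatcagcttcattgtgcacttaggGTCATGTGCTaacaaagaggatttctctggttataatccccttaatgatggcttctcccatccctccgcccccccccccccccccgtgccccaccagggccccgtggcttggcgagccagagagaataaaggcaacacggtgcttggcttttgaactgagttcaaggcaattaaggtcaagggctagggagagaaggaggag

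The shared run GTCATGTGCT spanned bases −23 to −14 from the start site in Tyr, −48 to −39 in Tyrp1 and −152 to −143 in Dct. On either strand it was in 3 of the 7 windows, those of the enzymes, and in 0.186% of the 32851 windows of the table. The core CATGTG, searched on both strands, was in the same 3 windows and in 14.2% of all windows. Dct had a further copy on the other strand, at −232 to −227, which did not overlap the first. The 3 Mitf windows and the Ednrb window held neither run. A match is a run of letters and not evidence of binding.

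The deposited values were standardized: each probe set had mean 0 and SD 1 over the 8 arrays. Such a score gives an array's place among the 8 in units of that probe set's own SD, so no expression level, fold change or detection limit can be given, and a low score in 1 genotype raises the scores of the others. For the same reason the presence of melanocyte or other skin transcripts could not be checked from their level. Arrays of the same genotype correlated across all 22690 probe sets with r from 0.12 to 0.34, and arrays of different genotypes with r from −0.39 to 0.09. The array also has 64 control probe sets, some of which carry the symbols of 4 genes. Their median scores were 0.12 and 0.31 in double-null arrays, 0.40 and 0.13 in pRb-null arrays, −0.09 and 0.45 in p53-null arrays, and −0.69 and −0.51 in Control arrays.

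Dct, Pmel, Tyr and Tyrp1 had their lowest scores in skin that lacked both pRb and p53. In 10 of the 17 melanocyte probe sets the double-null arrays were the lowest 2 of all 8, and in 0 of the 17 the highest 2; over the whole table the shares were 10.1% and 7.84%. These 10 were the only probe sets of Dct and Pmel, all 3 of Tyr, all 3 of Tyrp1, 1 of Mitf and 1 of Sox10. The median score of the 17 was −1.58 and −0.97 in double-null arrays, against values from 0.31 to 0.68 in the other 6 arrays. Other skin cell types can carry Mitf, Sox10 and Ednrb, and the probe sets of these genes did not share 1 pattern.

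**Figure D1:**
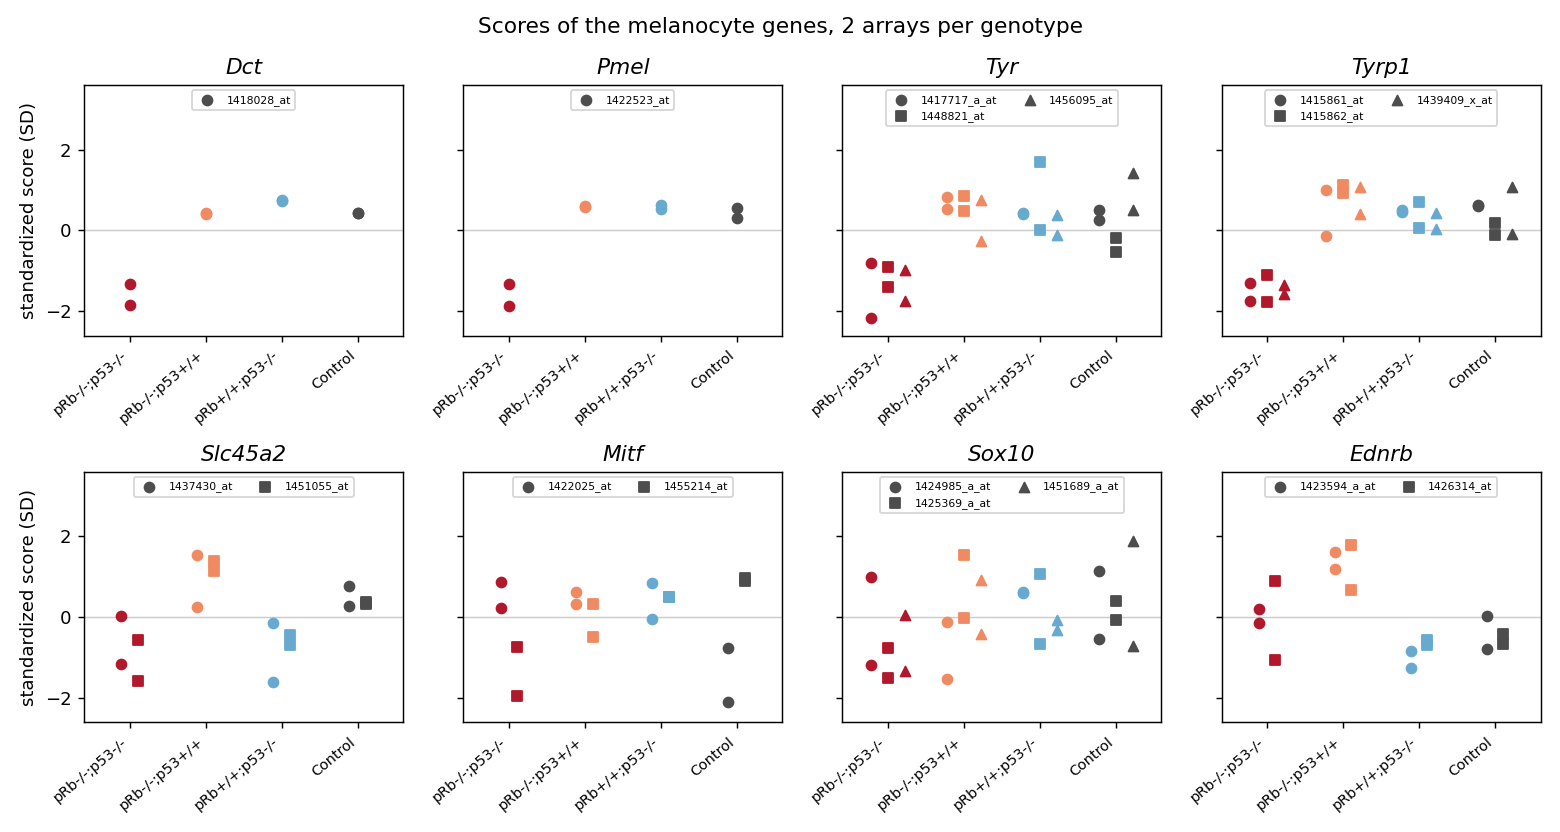
Standardized scores (y axis, in SD of each probe set over the 8 arrays) of the 8 measured melanocyte genes by genotype, with 1 point per array and 1 symbol shape per probe set. In the top row both pRb-/-;p53-/- points lie below every point of the same probe set in the other genotypes.

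Dct, which converts dopachrome in the later part of the melanin pathway, had the cleanest separation. Its scores were −1.85 and −1.33 in double-null skin, against 0.43 and 0.41 in pRb-null skin, 0.74 and 0.73 in p53-null skin, and 0.43 and 0.43 in Control skin. The 6 arrays outside double-null skin thus lay within a band from 0.41 to 0.74, and the gap below that band took up 67.5% of the range of the probe set. Dct fell by 2.02 ± 0.18 (SE) in double-null skin relative to Control, with an adjusted p of 0.0454 in limma's linear model without variance moderation. It was the 1 melanocyte probe set called in that comparison, where 0.846% of all probe sets were called. The call was not secure: the adjusted p was 0.144 and 0.212 without Control array 1 and 2, 0.127 without either pRb-null array and 0.158 without either p53-null array. Without double-null array 1 or 2 it was 0.00984 and 0.00458, and Dct was then the 1 probe set called in the whole table. It was called in 3 of 13 alternatives, with adjusted p up to 0.369. In the fits without a double-null array the remaining one adds nothing to the estimate of spread, which comes from the 3 genotypes in which the Dct scores almost coincide.

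Pmel, the protein of the melanosome fibrils, followed the same course. It scored −1.86 and −1.33 in double-null skin, against 0.58 and 0.60 in pRb-null skin, 0.53 and 0.62 in p53-null skin, and 0.55 and 0.31 in Control skin. The difference from Control was −2.03 ± 0.21, with an adjusted p of 0.0562, just outside the threshold of 0.05. Over the 13 alternatives run, its adjusted p ranged from 0.0486 to 0.385, and 1, with the median of each array set to 0, passed.

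Tyr, the rate-limiting enzyme of melanin synthesis and the gene mutated in albino mice, was measured by 3 probe sets. For 1417717_a_at the scores were −2.17 and −0.80 in double-null skin, against 0.54 and 0.83 in pRb-null skin, 0.43 and 0.41 in p53-null skin, and 0.51 and 0.25 in Control skin. For 1456095_at they were −1.73 and −0.97 in double-null skin, against −0.26 and 0.76, −0.10 and 0.37, and 1.41 and 0.51 in pRb-null, p53-null and Control skin. Both placed double-null skin at the bottom without overlap. The third, 1448821_at, did so by less: −0.91 and −1.41 in double-null skin, against −0.19 and −0.54 in Control skin, with scores up to 1.70 in the single mutants. The differences from Control were −1.87 ± 0.50, −2.31 ± 0.58 and −0.79 ± 0.65, with adjusted p of 0.186, 0.170 and 0.575. The probe sets of Tyr correlated with each other over the 8 arrays with r of 0.86, 0.65 and 0.39.

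Tyrp1, the enzyme that acts after Dct and stabilizes Tyr, was also measured by 3 probe sets, which were closely alike, with r from 0.80 to 0.87 over the 8 arrays. Probe set 1415861_at scored −1.76 and −1.30 in double-null skin, against −0.14 and 0.99 in pRb-null skin, 0.51 and 0.46 in p53-null skin, and 0.60 and 0.64 in Control skin. The lowest score outside double-null skin was −0.11 for 1415862_at and −0.08 for 1439409_x_at, against −1.78 and −1.09, and −1.58 and −1.36, in double-null skin. All 3 thus put both double-null arrays below the rest. Differences from Control were −2.14 ± 0.43, −1.47 ± 0.36 and −1.97 ± 0.50, each with an adjusted p from 0.129 to 0.173.

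Slc45a2, the transporter that supports melanosome pH, had another profile. Probe set 1451055_at scored −1.58 and −0.56 in double-null skin, against 1.40 and 1.15 in pRb-null skin, −0.68 and −0.44 in p53-null skin, and 0.32 and 0.38 in Control skin. Probe set 1437430_at scored −1.15 and 0.03 in double-null skin, against 0.25 and 1.54, −1.59 and −0.14, and 0.78 and 0.28 in pRb-null, p53-null and Control skin. In both probe sets the p53-deficient arrays lay below those of Control, with or without pRb, and the double-null and p53-null arrays overlapped. The difference between those genotypes was −0.51 ± 0.38 and 0.31 ± 0.82, with adjusted p of 0.637 and 0.898. Against Control the double-null difference was −1.42 ± 0.38 and −1.09 ± 0.82, with adjusted p of 0.185 and 0.541. Without double-null array 1 these differences were −0.91 and −0.50, and without array 2 they were −1.93 and −1.68.

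Mitf gave opposite readings. Probe set 1455214_at scored −1.96 and −0.75 in double-null skin, against −0.50 and 0.33 in pRb-null skin, 0.51 and 0.50 in p53-null skin, and 0.89 and 0.97 in Control skin, and its difference between double-null skin and Control was −2.28 ± 0.52 (adjusted p = 0.151). Probe set 1422025_at scored 0.88 and 0.24 in double-null skin, against 0.32 and 0.63, −0.05 and 0.84, and −0.76 and −2.09 in pRb-null, p53-null and Control skin, a difference of 1.99 ± 0.62 (adjusted p = 0.222). The first had double-null skin lowest, and the second had both Control arrays lowest. Over the 8 arrays they correlated with r = −0.60. Mitf has several promoters and isoforms, and the sources used here do not say which transcripts each probe set detects, so no direction can be given for the gene.

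Sox10, a neural crest factor that Schwann cells also carry, had 1 of 3 probe sets, 1425369_a_at, in which both double-null arrays were lowest. The scores in double-null skin were −0.77 and −1.50 for 1425369_a_at, −1.34 and 0.05 for 1451689_a_at and −1.17 and 0.99 for 1424985_a_at. Control skin had −0.06 and 0.40, −0.72 and 1.88, and −0.54 and 1.14 for the same probe sets. The arrays of these genotypes overlapped in the last 2 of the 3, and the differences from Control ran from −1.31 to −0.40 with SE from 0.88 to 1.15 and adjusted p from 0.495 to 0.876. The probe sets correlated with each other with r from −0.31 to 0.48.

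Ednrb, the endothelin receptor that carries melanoblasts through their migration and is also found in blood vessels and glia, was highest in skin that lacked pRb alone. Probe set 1423594_a_at scored −0.15 and 0.21 in double-null skin, 1.62 and 1.19 in pRb-null skin, −1.26 and −0.83 in p53-null skin, and 0.02 and −0.79 in Control skin. Probe set 1426314_at scored 0.90 and −1.06 in double-null skin, 1.79 and 0.68 in pRb-null skin, −0.56 and −0.68 in p53-null skin, and −0.42 and −0.66 in Control skin. Both had the pRb-null arrays above those of Control without overlap, by 1.79 ± 0.38 (adjusted p = 0.300) and 1.78 ± 0.80 (adjusted p = 0.553). Neither separated double-null skin from Control, at 0.41 ± 0.38 and 0.46 ± 0.80.

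Counted over the 17 probe sets, the double-null arrays lay below both Control arrays in 12 and above both in 1, where the shares over the whole table were 26.1% and 25.1%. At an unadjusted p under 0.05, 9 were lower and 1, Mitf 1422025_at, was higher, against 9.91% and 8.77% of all probe sets. The median difference was −1.42, against −0.01 over all probe sets. This describes the list and is no test of it.

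The comparison of double-null with pRb-null skin asked what p53 loss adds where pRb is absent. In it, 13 of the 17 lay below without overlap and 0 above (28.1% and 22.1% of all probe sets), 9 were lower and 0 higher at an unadjusted p under 0.05 (10.9% and 7.71%), and the median difference was −1.83 against −0.15 over the table. In this comparison 0 melanocyte probe sets were called, against 0.405% of all. Dct differed by −2.01 ± 0.18 (adjusted p = 0.0597), Pmel by −2.19 ± 0.21 (adjusted p = 0.0620) and Tyrp1 1415862_at by −2.45 ± 0.36 (adjusted p = 0.101). Dct passed in 3 of 13 alternatives, with adjusted p of 0.0494 with the array medians set to 0 and of 0.01 and 0.00465 in limma fits with 1 double-null array. In the others it was as high as 0.370. The array control probe sets differed by a median of 0.07 here and of 0.71 between double-null and Control, and the 8 probe sets of Dct, Pmel, Tyr and Tyrp1 by −2.09 and −1.995. The part of technical differences between arrays in these values was not tested.

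The comparison of double-null with p53-null skin asked what pRb loss adds where p53 is absent. There 10 of the 17 lay below without overlap and 1 above (25.2% and 24.3% of all probe sets), and 8 were lower and 1, Ednrb 1423594_a_at, was higher at an unadjusted p under 0.05 (5.91% and 5.99%), with a median difference of −1.48 against 0.03 over the table. Here 0 of them were called, against 0.0353% of all probe sets. Dct differed by −2.33 ± 0.18 (adjusted p = 0.0966) and Pmel by −2.17 ± 0.21 (adjusted p = 0.121). Dct passed in 2 of 13 alternatives, the limma fits with 1 double-null array, with adjusted p of 0.00611 and 0.00314. In the others it ran from 0.0631 to 0.520. The comparisons of double-null skin share its 2 arrays and are not independent of one another.

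**Figure D2:**
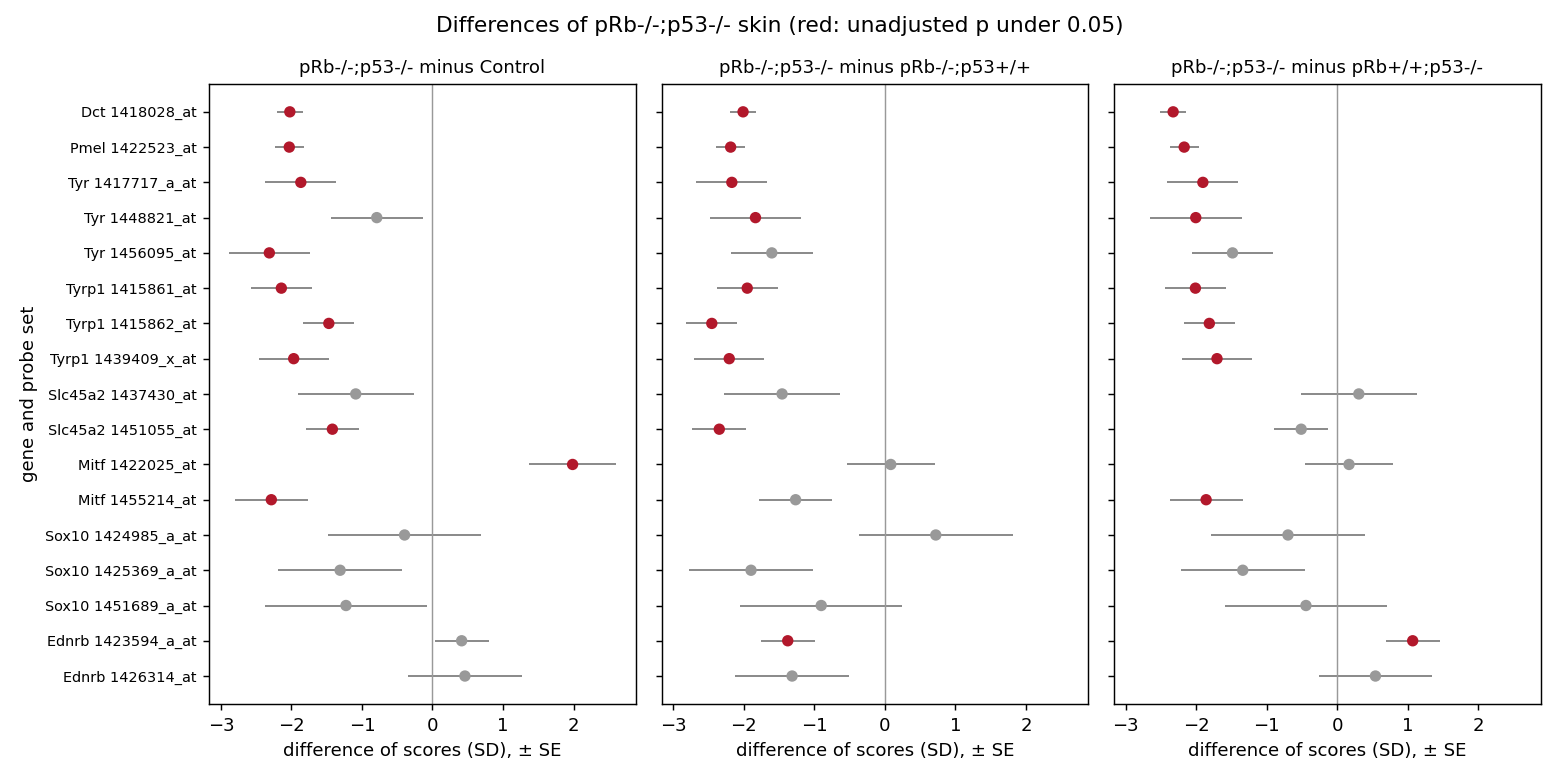
Differences of scores (x axis, in SD, with the SE of the fit) between pRb-/-;p53-/- skin and each other genotype for the 17 melanocyte probe sets (y axis). Red points have an unadjusted p under 0.05; all points of Dct, Pmel, Tyr and Tyrp1 lie left of 0 in the 3 panels, and each of Slc45a2, Mitf, Sox10 and Ednrb has points on both sides.

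Neither pRb-null nor p53-null skin showed 1 direction across the pigment genes. Between pRb-null and Control skin, 0 of the 17 probe sets were lower and 2 higher at an unadjusted p under 0.05 (4.21% and 6.44% of all probe sets), those being Mitf 1422025_at and Ednrb 1423594_a_at. The arrays did not overlap in 2 lower and 8 higher (18.4% and 22.7%). Between p53-null and Control skin the counts were 0 lower and 1 higher, Mitf 1422025_at (7.23% and 7.38%), with 6 lower and 3 higher by arrays that did not overlap (28.9% and 23.8%). The median difference of the list was 0.30 and −0.08, and 0 of its probe sets were called by limma in either, with or without moderation, against 0% and 0.119% of the table in the test without it. For the 8 probe sets of Dct, Pmel, Tyr and Tyrp1 the differences ran from −0.71 to 1.04 in pRb-null skin and from −0.83 to 1.22 in p53-null skin, so the 3 genotypes other than double-null skin had no order for these genes that their probe sets shared.

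Whether the effect of p53 loss differed with the state of pRb was tested by the interaction, double-null skin minus both single mutants plus Control. Dct had an interaction of −2.31 ± 0.26 (unadjusted p = 0.000835, adjusted p = 0.206) and Pmel of −2.33 ± 0.29 (unadjusted p = 0.00137, adjusted p = 0.236) in limma's fit. Of the 17 probe sets, 6 were lower and 0 higher at an unadjusted p under 0.05, against 6.01% and 4.46% of all. These were the probe sets of Dct and Pmel, 2 of Tyr and 2 of Tyrp1. After adjustment 0 of the 17 passed, as did 0% of all probe sets, in the tests with and without moderation. Dct passed in 2 of 12 alternatives, the fits with 1 double-null array, with adjusted p of 0.0134 and 0.00686, and reached 0.585 in the others.

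Within the set, the probe sets of Dct, Pmel, Tyr and Tyrp1, grouped after their values had been seen, were alike over the arrays. Their 28 pairs had a median r of 0.86, from 0.39 to 0.99, and the highest was between Dct and Pmel. Mitf 1455214_at had a median r of 0.85 with them, Slc45a2 1451055_at 0.66 and Sox10 1425369_a_at 0.65. Both Ednrb probe sets had medians near 0, at 0.02 and −0.03, and Mitf 1422025_at had −0.28. These r are over 8 arrays in 4 genotypes, and in each of the 8 probe sets the double-null arrays held the lowest scores. In 7 of the 8 probe sets of the 4 genes, double-null array 1 scored below array 2.

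**Figure D3:**
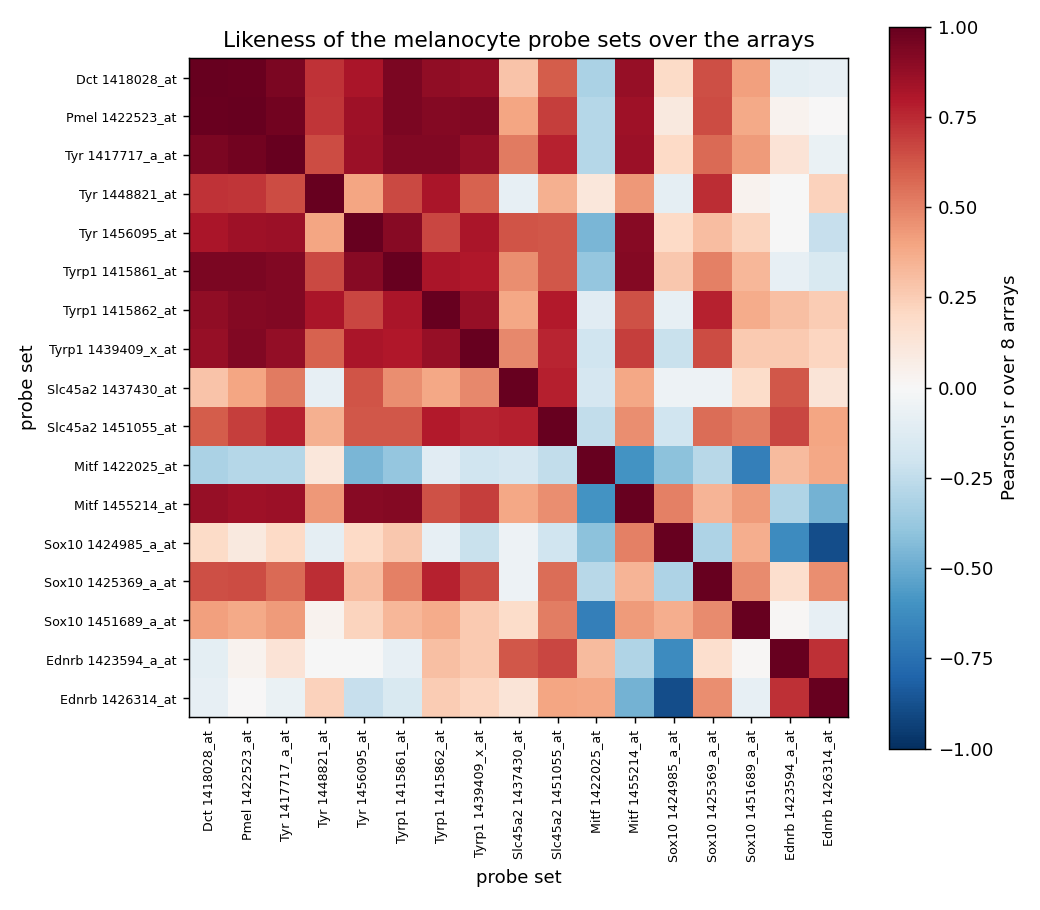
Pearson's r over the 8 arrays between each pair of melanocyte probe sets (both axes), from −1 in blue to 1 in red. The block of Dct, Pmel, Tyr and Tyrp1 at the upper left holds r from 0.39 to 0.99, and the pair of Mitf probe sets has r of −0.60.

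The genes most like the pigment genes were ranked by r with their mean score, taken over Dct, Tyr, Tyrp1, Pmel and Slc45a2. That mean ranks first Prmt5 (r = 0.98), Siva1, Sephs2, Gclc, Mt2, Xist, Cers4, Bok, Rps24 and Smc4 (r = 0.95), out of the single-symbol probe sets of other genes. Most of these genes had further probe sets with a lower r, down to −0.17 for Sephs2, 0.38 for Siva1 and 0.27 for Xist. For Dct alone, the 3 closest were Ccnd2, Rhbdl3 and Edn3 (r = 0.97 each), and for Pmel alone Ccnd2, Edn3 and Xist (r = 0.97 each). Each of these r is of 1 probe set. Other probe sets had an r with the pigment mean down to 0.38 for Ccnd2 and 0.25 for Rhbdl3.

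Edn3 is the ligand of Ednrb and drives the growth of melanocyte precursors. Its probe set 1421136_at scored −1.71 and −1.44 in double-null skin, against 0.39 and 0.23 in pRb-null skin, 0.38 and 0.71 in p53-null skin, and 0.94 and 0.50 in Control skin. It differed from Control by −2.30 ± 0.22 (adjusted p = 0.0542). The other probe set, 1438696_at, scored 0.41 and −0.01 in double-null skin and 0.51 and −1.98 in Control skin, and had r of −0.02 with the mean of the pigment genes.

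Xist RNA coats the inactive X chromosome and is made in female cells. Its probe set 1427262_at scored −1.57 and −1.50 in double-null arrays, against 0.68 and 0.80 in pRb-null, 0.58 and 0.60 in p53-null and 0.65 and −0.23 in Control arrays. Probe set 1436936_s_at scored −1.81 and −1.06 in double-null arrays, against 0.25 and −0.13 in Control arrays. The remaining one, 1427263_at, did not separate them, with −0.53 and −0.44 against −0.38 and −1.57. The labels do not give the sexes of the pooled animals, and the part of sex in the result was not tested.

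Other pigment genes were less uniform. Of the list of 32 further melanosome and pigment genes, 25 were measured by 36 probe sets, of which 5 were lower and 1 higher in double-null than in Control skin at an unadjusted p under 0.05, where the shares over the whole table were 9.91% and 8.77%. Of these 36, 0 were called, 15 differences were above 0, and the median difference was −0.65. Trpm1, a channel of melanocytes, scored −1.24 and −1.29 in double-null skin, against 1.04 and 0.82 in Control skin, by 1418935_at (difference −2.20 ± 0.40, adjusted p = 0.115), and its other probe set differed by −0.73 (adjusted p = 0.484). Oca2, a melanosome anion channel, scored −1.68 and −1.10 in double-null skin, against 0.68 and −0.06 in Control skin (difference −1.70 ± 0.40, adjusted p = 0.159). Gpnmb, a melanosome protein that macrophages also make, differed by −2.38 ± 0.50 (adjusted p = 0.136). Rab27a, which ties melanosomes to the cell's transport motors but also serves other secretory cells, went the other way by 1454438_at, at 2.35 ± 0.35 (adjusted p = 0.0906). Its other probe sets were not higher at an unadjusted p under 0.05.

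Of 15 genes for melanocyte signals and receptors, 12 were measured by 21 probe sets. Of these, 3 were lower and 1 higher in double-null than in Control skin at an unadjusted p under 0.05, and 0 were called. The shares over the whole table were 9.91%, 8.77% and 0.846%. The median difference of the list was −0.09, with 11 probe sets below 0 and 10 above. The higher one was Hgf 1425379_at, at 2.28 ± 0.61 (adjusted p = 0.184), and the other Hgf probe set differed by 1.08 (adjusted p = 0.587). Besides Edn3, the melanocortin receptor Mc1r scored −1.02 and −1.01 in double-null skin, against 0.59 and 1.23 in Control skin, and −0.74 and −0.74 in p53-null skin. Ece1, which cuts endothelins to their active form, differed between double-null and Control skin by −1.69 ± 0.30 by 1455741_a_at (adjusted p = 0.113). That probe set scored lower still in p53-null skin, at −1.18 and −1.16, against −0.81 and −0.31 in double-null skin. The other Ece1 probe set differed between double-null and Control skin by −1.28 (adjusted p = 0.268). Of 11 transcription factors of the lineage, 10 were measured by 20 probe sets. In the same comparison 6 were lower and 1 higher and 0 were called, beside the same shares of the whole table. The 3 lowest p were for Sox9 (−2.43 ± 0.25 and −2.01 ± 0.34, adjusted p of 0.0554 and 0.105) and Sox5 (−1.75 ± 0.21, adjusted p = 0.0674), which hair follicle or cartilage cells also carry. In p53-null skin Sox9 1424950_at and Sox5 1423500_a_at also scored below Control, by −1.35 and −1.41 (adjusted p of 0.164 and 0.131). The other Sox5 probe sets differed between double-null and Control skin by −1.52, −1.11 and 1.10 (adjusted p from 0.368 to 0.634). Relative to pRb-null skin, double-null skin had 4 lower and 2 higher of the further pigment probe sets at an unadjusted p under 0.05, 4 and 0 of the signal probe sets and 5 and 0 of the transcription factor probe sets, where the shares of the whole table were 10.9% and 7.71%. Relative to p53-null skin the counts were 3 and 1, 5 and 0, and 2 and 0, where the shares were 5.91% and 5.99%. In either comparison 0 of any of these lists were called. For the further pigment list the lower counts amount to 11.1% against pRb-null and 8.33% against p53-null skin, near the shares of the table.

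Markers of some other skin cells also differed between these arrays. Hair follicle and shaft genes, 26 of 29 measured by 27 probe sets, had median scores of −1.38 and −1.08 in double-null skin, against 0.70 and 0.60 in pRb-null skin, −0.37 and −0.31 in p53-null skin, and 0.93 and 1.04 in Control skin. Between double-null and Control skin 14 of these probe sets were called, and 23 were lower and 1 higher at an unadjusted p under 0.05. The shares over the whole table were 0.846%, 9.91% and 8.77%. Their median r with the mean of the pigment genes was 0.80. In p53-null skin the patterns parted for Dct, Pmel, Tyr and Tyrp1, which were grouped after their values had been seen. Their 8 probe sets had medians of 0.52 and 0.42 there, against 0.53 and 0.28 in Control skin. The follicle list differed from Control by a median of −1.46, with 22 of 27 lower at an unadjusted p under 0.05 (7.23% of all probe sets). Slc45a2, also part of the pigment mean, did not part from the follicle list, with a median difference of −1.15 over its 2 probe sets. The difference between these lists was not tested.

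Schwann cell and nerve genes, 13 of 17 measured by 25 probe sets, had medians of −0.76 and −0.30 in double-null skin, 0.13 and 0.12 in pRb-null skin, −0.41 and −0.46 in p53-null skin, and 0.57 and 0.53 in Control skin. Of these 25, 10 were lower and 4 higher than in Control skin at an unadjusted p under 0.05, and 1 was called. It was 1 of several probe sets of the myelin gene Mbp, a gene that weighs on these counts. The shares over the whole table were 9.91%, 8.77% and 0.846%. Macrophage genes (12 genes, 16 probe sets) had medians of 1.12 and 0.86 in double-null skin and −0.41 and −0.10 in Control skin. Their medians were −0.48 and −0.55 in pRb-null and −0.32 and −0.10 in p53-null skin. Endothelial genes (11 genes, 15 probe sets) had 0.99 and 0.86 in double-null skin and −0.70 and −0.47 in Control skin. They had 0.42 and −0.22 in pRb-null and 0.21 and 0.18 in p53-null skin. Between double-null and Control skin, 14 macrophage differences were above 0 and 2 below, and 12 endothelial ones above and 3 below. Mast cell genes, 10 of 12 measured by 13 probe sets, had 0.43 and 0.55 in double-null skin, 1.10 and 1.30 in p53-null skin, and −0.74 and −0.66 in Control skin. Basal keratinocyte genes, 9 of 11 measured by 15 probe sets, had −0.39 and −0.24 in double-null skin, against −0.34 and 0.53 in Control skin. As a list they showed no direction between these genotypes, with a median difference of 0.02, 7 probe sets below 0 and 8 above. The part of these cells in the melanocyte scores was not tested.

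**Figure D4:**
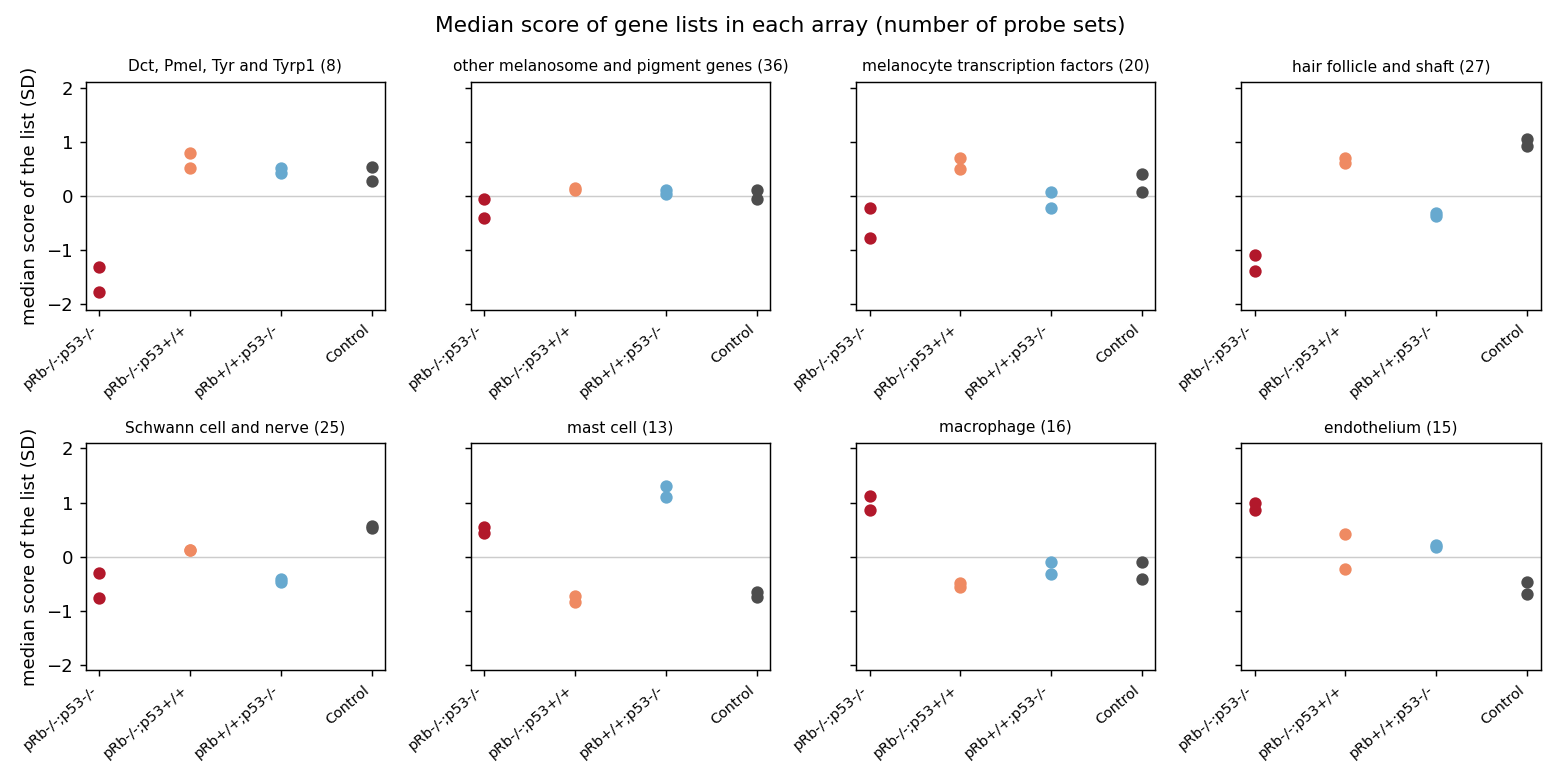
Median score of each gene list (y axis, in SD) in each of the 2 arrays of a genotype (x axis); the number of probe sets stands after each list's name. Dct, Pmel, Tyr and Tyrp1 were grouped after their values had been seen. Their median is below 0 in pRb-/-;p53-/- skin alone, at −1.77 and −1.32. That of the hair follicle list is also below 0 in pRb+/+;p53-/- skin, at −0.37 and −0.31.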

How the data were processed

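Whole-skin RNA was hybridized to 8 arrays, whose number limits the precision. The submitters' processing notes name RMA and no other tool. Per the file's values, the deposited scores have mean 0 and SD 1 for each of the 22690 probe sets, within 1e-06, and it is unknown whether logarithms were taken first. Gene symbols came from the platform annotation, of which the RefSeq table changed 0.

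One linear model with a mean per genotype and 4 residual degrees of freedom was fitted to all arrays (limma 3.58.1, R 4.3.3). Benjamini-Hochberg adjustment ran over the whole table in each comparison, and a probe set was called at an adjusted p under 0.05. Because the deposited standardization gives every row the same SD, the ordinary statistic was used and the moderated one kept as an alternative. No filter on dim probe sets was possible. The fit was tested on simulated data.

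The members, lists, test and alternatives were chosen with earlier results of these data known. Outside the members, the rule named the 10 probe sets with the highest Pearson's r to the pigment mean, the 3 highest for each gene, and the 3 of a list with the smallest p in a comparison. Oca2, Hgf and the second probe sets of Edn3, Trpm1 and Ece1 were added after their values were seen. So were the further probe sets of Sox5 and Xist, and the lower r of Siva1, Sephs2, Xist, Ccnd2 and Rhbdl3. Summaries used Python 3.11.15 and pandas 2.3.3.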

Additional observations from a re-analysis of the deposited data

How the results depend on the processing

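All differences of Dct, Pmel, Tyr and Tyrp1 between double-null and other skin kept their direction under every alternative run. Calls did not. For double-null against Control, pRb-null and p53-null skin, and for p53-null against Control, 192, 92, 8 and 27 probe sets of the table were called. The moderated test, the replicate block and the fit to only the groups compared gave 0 in each, quantile normalization gave 1, 1, 1 and 0, and array medians set to 0 gave 4 and 5 in the last pair. Leaving out 1 array gave 1 to 8, 0 to 6, 0 to 1 and 0 to 5, and 0 to 1 for pRb-null against Control and for the interaction. The Dct difference from Control was called in 3 of 13 alternatives, with adjusted p from 0.00458 to 0.369, and the replicate block gave 0.128. Same-numbered arrays deviated from their genotype means with r from −0.163 to 0.197, so the numbers were not taken to pair them. Melanocyte probe sets at an unadjusted p under 0.05 numbered 3, 4 and 3 for double-null against Control, double-null against p53-null and p53-null against Control with only the groups compared, 1 for pRb-null against Control with the block or quantile normalization, and 0 for p53-null against Control with the block. Without 1 array they numbered 5 to 10 for double-null against Control, 4 to 7 against p53-null, 0 to 4 for pRb-null and 0 to 2 for p53-null against Control, and 3 to 5 for the interaction. The median member difference of double-null from pRb-null skin was −1.58 with quantile normalization. Without 1 array the median ran from −1.92 to −1.13 against Control, −1.78 to −1.16 against p53-null and −1.70 to −1.32 for the interaction. Without 1 array some single differences of double-null skin changed sign. Sox10 1424985_a_at ran from −1.48 to 0.69 against Control, −0.36 to 1.80 against pRb-null and −1.78 to 0.38 against p53-null, and Sox10 1451689_a_at from −2.53 to 0.076 against Control and −1.14 to 0.25 against p53-null. Ednrb 1426314_at ran from −0.52 to 1.44 against Control and −0.44 to 1.52 against p53-null, Mitf 1422025_at from −0.24 to 0.41 against pRb-null and −0.28 to 0.61 against p53-null, and Slc45a2 1437430_at from −0.42 to 1.03 against p53-null. The cause of these changes was not tested.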
